A study of Mus musculus with 18 samples.

Results

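The 10 mouse genes described here were selected on these arrays for their differences between K14Cre-Trpa1 fl/fl mutant mice and K14Cre-Trpa1+/+ control mice in the epidermis or in the dorsal root ganglion (DRG). They are Glo1, Akr1e1, Pla2g4e, Slc15a2, Slc6a20a, Clec2d, Gpr137b-ps, Zfp979, Dnah8 and AI506816, and 11 probe sets that stand for exactly 1 of them were found among 21789 such probe sets, which cover 19938 genes. Glo1 has 2 of the 11. The values that chose these genes were the mutant minus control differences in naive epidermis, in epidermis after complete Freund's adjuvant (CFA) and in DRG, so those differences are given as a description, without a test.

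Expression was read on Affymetrix Mouse Gene ST arrays in 6 groups of 3. Naive control and naive mutant mice gave hindpaw epidermis. DRG of the lumbar levels down to L6 came from control and mutant mice whose labels name no treatment. CFA control and CFA mutant mice gave epidermis 2 days after 50 µl of CFA, an oil emulsion of killed mycobacteria that inflames the paw. The mice were adult males of at least 7 weeks on a mixed C57BL/6, CBA and Swiss Webster background. In all groups the keratinocyte promoter of keratin 14 drove Cre recombinase, and only the mutant mice carried loxP sites around the Trpa1 exons that encode the channel pore. The control and mutant colonies had been bred apart, so an effect of the Trpa1 allele and any other difference between the colonies cannot be told apart. Naive epidermis had received no vehicle injection. The sources do not tie epidermis to DRG of an animal, and p-values measure the spread between these arrays.

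The genes belong to unrelated families. Glyoxalase and aldo-keto reductases clear reactive carbonyls that arise from sugar metabolism. Members of the SLC transporter families carry peptides and amino acids across the plasma membrane. Cytosolic phospholipases act on membrane lipids, C-type lectin-like proteins are recognised by receptors on lymphocytes, and KRAB zinc finger proteins bind DNA, often at transposable elements. By RefSeq, 8 of the 10 genes are protein-coding, 1 (AI506816) is a long noncoding RNA and 1 (Gpr137b-ps) is a transcribed pseudogene, and they lie on 8 chromosomes. Glo1 and Dnah8 are direct neighbours on chromosome 17 and are transcribed away from each other, and Akr1e1 and Gpr137b-ps both lie on chromosome 13.

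Sequence upstream of the start was matched in RefSeq (GRCm38.p6) for 9 of the 10 genes, all except Gpr137b-ps. 4 of these are printed, 250 bases each from 5′ to 3′ on the gene's own strand and ending at the base before the start. Glo1 and Dnah8 are shown because they are neighbours that were both higher in mutant DRG, and Slc15a2 and Akr1e1 because they were higher in the mutant in both tissues. Capitals mark matches, on either strand, to a CCAAT box (CCAAT) or a GC box (GGGCGG).
Glo1, chr17:30612660-30612909, minus strand: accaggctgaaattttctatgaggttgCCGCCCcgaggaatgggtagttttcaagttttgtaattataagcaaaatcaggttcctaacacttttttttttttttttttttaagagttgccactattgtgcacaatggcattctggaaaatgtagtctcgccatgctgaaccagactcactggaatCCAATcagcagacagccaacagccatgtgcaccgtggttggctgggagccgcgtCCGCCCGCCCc
Dnah8, chr17:30626686-30626935, plus strand: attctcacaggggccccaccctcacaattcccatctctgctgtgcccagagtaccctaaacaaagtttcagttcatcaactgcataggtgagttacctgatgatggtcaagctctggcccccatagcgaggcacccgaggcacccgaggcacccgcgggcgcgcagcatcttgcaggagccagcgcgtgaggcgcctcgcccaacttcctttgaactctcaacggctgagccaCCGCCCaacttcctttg
Slc15a2, chr16:36784963-36785212, minus strand: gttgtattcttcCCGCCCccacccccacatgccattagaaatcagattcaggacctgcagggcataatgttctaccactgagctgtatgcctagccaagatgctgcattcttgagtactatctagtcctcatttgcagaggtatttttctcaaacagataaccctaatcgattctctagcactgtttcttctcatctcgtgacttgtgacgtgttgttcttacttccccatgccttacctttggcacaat
Akr1e1, chr13:4609165-4609414, minus strand: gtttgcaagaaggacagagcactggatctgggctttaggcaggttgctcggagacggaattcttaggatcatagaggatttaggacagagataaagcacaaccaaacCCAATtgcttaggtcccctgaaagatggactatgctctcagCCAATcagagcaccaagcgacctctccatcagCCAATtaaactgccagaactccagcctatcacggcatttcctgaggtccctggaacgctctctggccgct
The Glo1 sequence held 3 GC boxes, the last 2 of which overlap, and 1 CCAAT box, and the Akr1e1 sequence held 3 CCAAT boxes and 0 GC boxes. Dnah8 and Slc15a2 held 1 GC box each. Over the 9 genes, 6 held a GC box and 4 a CCAAT box, against 32.7% and 33.8% of all 32851 sequences of this length. A TATA box (TATAAA, in 12.4% of all), an AP-1 site (TGACTCA, in 4.46%) and an antioxidant response element (TGACNNNGC, in 10.2%) were looked for on both strands and were not found in these 9 windows. CpG dinucleotides numbered 8 in Glo1, 13 in Dnah8, 4 in Slc15a2 and 6 in Akr1e1, where the median over all sequences was 6.

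All values are log2 signals after RMA, which sets probe signals of arrays processed together to a common distribution. The 2 tissues may have been normalized apart. Array medians were 5.37 to 5.48 in epidermis and 6.51 to 6.58 in DRG, and replicate arrays correlated at 0.986 to 0.993 over all probe sets. Background was read from receptors of the olfactory system, which neither tissue should express widely, and lay at 4.58 to 4.79 in epidermis and 5.77 to 5.92 in DRG. All 11 measured markers of differentiated keratinocytes exceeded it on every epidermal array, and all 9 markers of sensory neurons did on every DRG array. Trpa1 lay at 3.80 to 3.85 in the 4 epidermal groups, below background on every array, and at 8.99 ± 0.10 in control and 8.61 ± 0.21 in mutant DRG (SD, n = 3). Differentiated keratinocyte markers averaged 5.48, 5.61 and 5.85 on the control DRG arrays and 6.27, 5.64 and 5.62 on the mutant ones, so control replicate 3 and mutant replicate 1 stood above the others. In CFA epidermis, the 9 measured Langerhans cell and macrophage markers averaged 6.44 to 6.57 in controls and 6.03 to 6.17 in mutants. Of these, Cd207, Csf1r, Cd74, H2-Aa, Fcgr3 and C1qa were above background on all CFA arrays.

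The genes whose genotypes were apart were not the same in the 3 conditions. Slc15a2 was higher in the mutant in all 3, and Gpr137b-ps was apart in all 3 but lower in naive epidermis and DRG and higher after CFA. Groups were apart (every array of one genotype above every array of the other) for 3 of the 10 genes in naive epidermis, for 9 in CFA epidermis and for 7 in DRG, where 16.6%, 14.3% and 11.8% of all 23410 probe sets tested were apart. With limma and Benjamini-Hochberg adjustment over those probe sets, 0 of the 10 were past an adjusted p of 0.05 in naive epidermis, 6 in CFA epidermis (3 higher and 3 lower in the mutant) and 6 in DRG (3 higher and 3 lower). Over all probe sets the shares past this threshold were 0.0299%, 0.179% and 0.0726%. These are the contrasts on which the genes were picked, so the counts describe the choice. The plot of every array's signal shows which groups were apart.

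**Figure D1:**
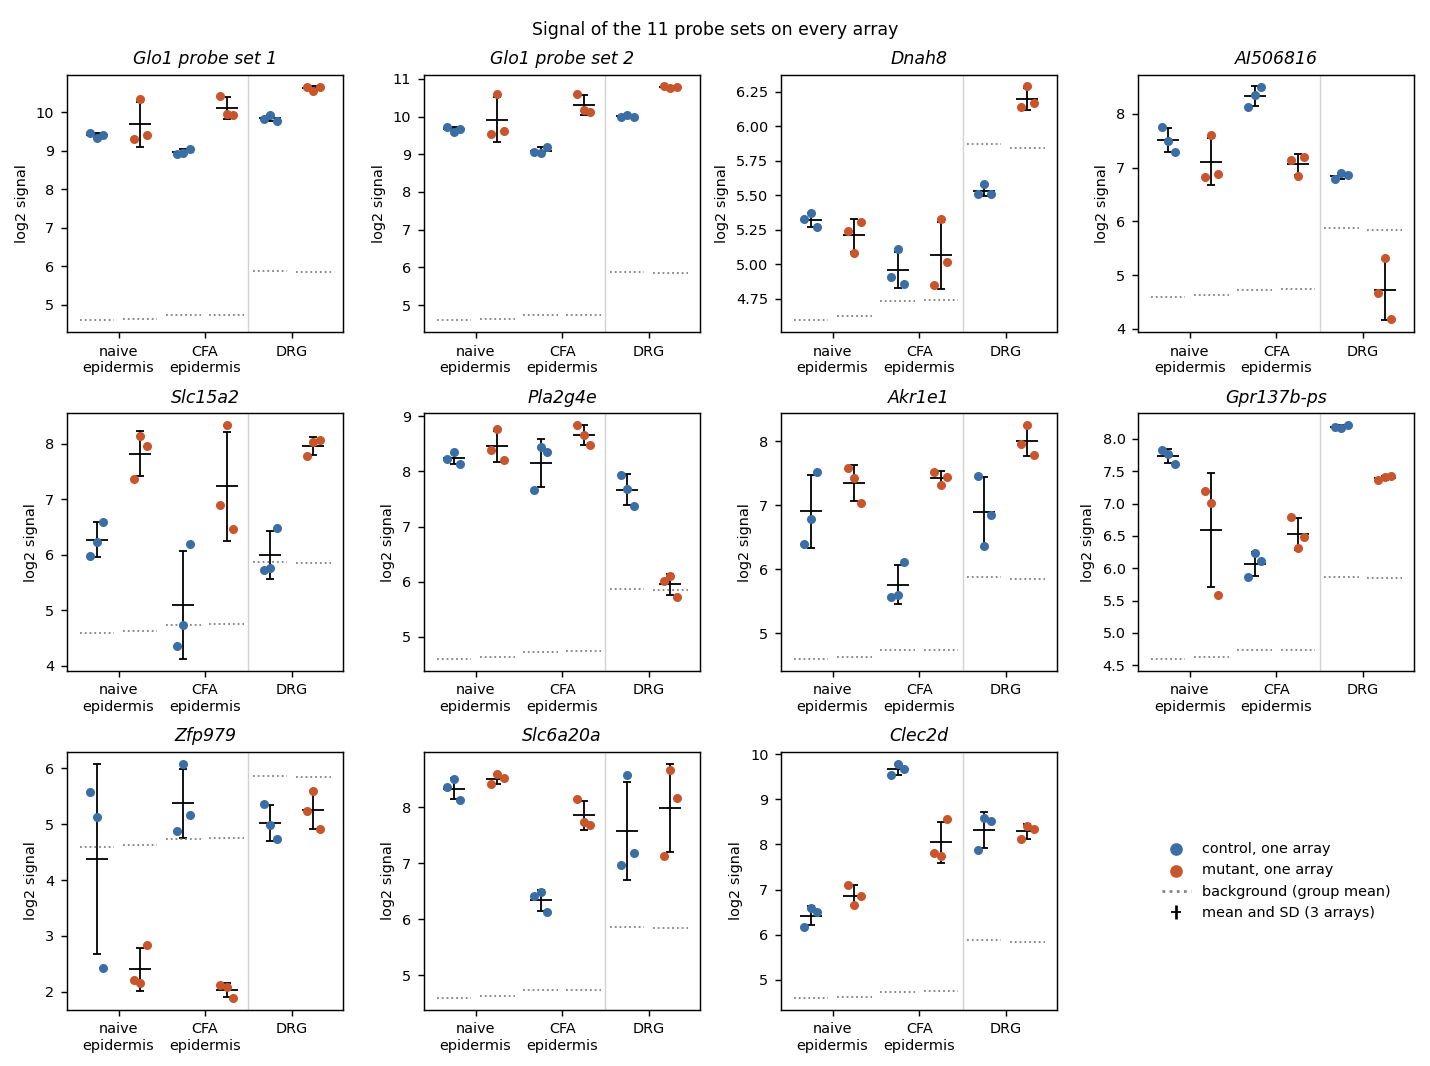
Each panel plots the log2 signal (y axis) of a probe set on each array in naive epidermis, CFA epidermis and DRG (x axis), control in blue and mutant in orange, with the mean and SD of 3 arrays as a black bar and the background as a dotted line. Slc15a2 was higher on every mutant array in all 3 conditions, while Glo1 and Akr1e1 were apart only in CFA epidermis and DRG.

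Glo1 encodes glyoxalase I, which detoxifies methylglyoxal with glutathione. On its first probe set, CFA epidermis read 8.91, 8.95 and 9.06 in controls and 10.44, 9.97 and 9.93 in mutants. DRG read 9.83, 9.93 and 9.78 in controls and 10.67, 10.57 and 10.65 in mutants. Every mutant array lay above every control array in both, by 1.14 (SE 0.14, 2.2-fold) in CFA epidermis and 0.78 (SE 0.07, 1.72-fold) in DRG. In naive epidermis the controls read 9.47, 9.34 and 9.41 and the mutants 9.31, 10.36 and 9.41. Here the groups overlapped, and mutant replicate 2 alone was about as high as the mutant arrays of CFA epidermis, which gave a difference of 0.29 (SE 0.25) that became -0.04 without that array and 0.48 without mutant replicate 1. The second probe set gave 0.26, 1.21 and 0.77 in naive epidermis, CFA epidermis and DRG, with the same arrays high. The sources do not say which region of the transcript each probe set reads.

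Dnah8, a heavy chain of the dynein that moves sperm flagella and cilia, lies next to Glo1. Its DRG signal was 5.51, 5.58 and 5.51 in controls, below background on all 3 arrays, and 6.14, 6.29 and 6.17 in mutants, above it on all 3. The mutant was at least 1.26-fold higher, a bound set by the background of the control arrays, and the measured difference was 0.67 (SE 0.07). In epidermis the genotypes overlapped, at 5.33, 5.37 and 5.27 in naive controls and 5.24, 5.08 and 5.31 in naive mutants, and the differences were -0.11 in naive and 0.10 in CFA epidermis. So the neighbours were both higher in mutant DRG, while in CFA epidermis Glo1 was apart and Dnah8 was not. Dnah8 lay close to background in CFA epidermis, with means 0.23 above it in controls and 0.32 in mutants. This limits how far a difference could show there.

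Akr1e1 encodes an aldo-keto reductase that reduces anhydrofructose, a sugar formed from glycogen. In CFA epidermis it read 5.56, 5.60 and 6.11 in controls and 7.52, 7.31 and 7.44 in mutants. In DRG it read 7.46, 6.36 and 6.85 in controls and 7.96, 8.25 and 7.79 in mutants. All mutant arrays were higher in both, by 1.67 (SE 0.15, 3.17-fold) and 1.11 (SE 0.24, 2.16-fold). The naive control arrays, at 6.40, 6.79 and 7.52, overlapped the naive mutant arrays, at 7.58, 7.43 and 7.03, and the difference there was 0.44 (SE 0.27), which became 0.19 without control replicate 1 and 0.75 without control replicate 3. The mutant arrays thus stayed between 7.03 and 7.58 in naive and CFA epidermis. Control epidermis was lowest after CFA, but naive control replicates 1 and 2, at 6.40 and 6.79, also lay below every mutant epidermis array.

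Pla2g4e encodes a calcium-dependent enzyme that makes N-acyl phosphatidylethanolamines, from which endocannabinoid-like lipids are released. In DRG it read 7.93, 7.69 and 7.37 in controls and 6.01, 6.11 and 5.73 in mutants, with no overlap, and was lower in the mutant by 3.28-fold (difference -1.72, SE 0.15). The 3 mutant arrays lay near background. In CFA epidermis the difference ran the other way, with 7.66, 8.45 and 8.35 in controls and 8.84, 8.66 and 8.48 in mutants, which was 1.42-fold higher in the mutant (0.51, SE 0.19), the groups being apart only narrowly, and without control replicate 1 the difference was 0.26. Naive epidermis overlapped, with a difference of 0.22 that was 0.056 without mutant replicate 2 and 0.34 without mutant replicate 3. In these whole tissues, fewer cells of a type and less RNA per cell cannot be told apart.

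Slc15a2 encodes PEPT2, a proton-coupled transporter of dipeptides and tripeptides. It read 5.98, 6.24 and 6.6 in naive control and 7.37, 8.14 and 7.96 in naive mutant epidermis. After CFA it read 4.35, 4.73 and 6.19 in controls and 6.89, 8.34 and 6.47 in mutants. DRG gave 5.72, 5.76 and 6.49 in controls and 7.78, 8.03 and 8.07 in mutants. The mutant was higher on every array in all 3 comparisons, by 1.55 (SE 0.22, 2.93-fold), 2.15 (SE 0.52, 4.43-fold) and 1.97 (SE 0.19, 3.93-fold). The CFA arrays spread the most, with SDs of 0.97 in controls and 0.98 in mutants. Control arrays were above background on 2 of 3 in CFA epidermis and 1 of 3 in DRG, with means 0.36 and 0.12 above it, so these folds are taken against signals near background. Leaving out the 2 DRG arrays with raised keratinocyte transcripts moved the DRG difference to 2.31. Probe sets that were apart in the same direction in all 3 comparisons made up 0.184% of all, 43 of 23410, and 37 of them stood for exactly 1 gene, 21 higher and 16 lower in the mutant. Slc15a2 was the only one of the 10 genes among them, and its smallest difference, 1.55, was larger than that of the other 36. Because Slc15a2 was chosen for these differences, its first place describes the choice. The next in order were H2-Eb1, an MHC class II chain (-0.85, -1.64 and -0.85), Iqgap2, a scaffold protein (-0.91, -0.89 and -0.54), and Gbp2b, an interferon-induced GTPase (-0.48, -2.39 and -1.75). Gbp2b was above background on only 5 of 12 epidermal and 4 of 6 DRG arrays, so its differences are read partly against background.

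Slc6a20a encodes a sodium-coupled transporter of proline and other imino acids. Its genotypes were apart only in CFA epidermis, at 6.42, 6.48 and 6.13 in controls and 8.15, 7.73 and 7.68 in mutants, which was 2.85-fold higher in the mutant (1.51, SE 0.15). Naive epidermis read 8.36, 8.51 and 8.13 in controls and 8.41, 8.59 and 8.52 in mutants. There the groups overlapped, and the CFA mutants, at 7.68 to 8.15, lay nearer to these naive arrays than the CFA controls did. In DRG the arrays of each genotype spread widely, from 6.97 to 8.57 in controls and from 7.13 to 8.67 in mutants, and the difference of 0.41 had an SE of 0.46, from 0.073 without mutant replicate 2 to 0.91 without control replicate 2. Replicate 1 was the lowest in both genotypes (6.97 and 7.13), and fibroblast markers were also lowest on those arrays (8.87 and 8.93, against up to 9.42 and 9.25). So were the macrophage, endothelial, satellite glia and Schwann cell lists and the erythrocyte marker, so no 1 cell type stood out. The part of these cell types in the result was not tested.

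Clec2d encodes a C-type lectin-like surface protein recognised by the inhibitory receptor Klrb1b of natural killer cells. In CFA epidermis it read 9.54, 9.78 and 9.67 in controls and 7.82, 7.75 and 8.57 in mutants, apart and 3.07-fold lower in the mutant (-1.62, SE 0.20). In naive epidermis it read 6.18, 6.59 and 6.50 in controls and 7.10, 6.65 and 6.85 in mutants, narrowly apart and 1.36-fold higher in the mutant (0.44, SE 0.14). DRG overlapped, with a difference of -0.04. The Langerhans cell and macrophage markers, at 6.44 to 6.57 in CFA controls and 6.03 to 6.17 in CFA mutants, moved in the same direction as Clec2d in CFA epidermis, and their part in the result was not tested.

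Gpr137b-ps is a pseudogene copy of Gpr137b, which encodes a lysosomal membrane protein. DRG read 8.19, 8.16 and 8.21 in controls and 7.36, 7.41 and 7.42 in mutants, tight groups that were 1.73-fold apart (-0.79, SE 0.06). Naive epidermis read 7.83, 7.76 and 7.61 in controls and 7.19, 7.01 and 5.58 in mutants, lower in the mutant by 2.2-fold (-1.14, SE 0.37), with replicate 3 the lowest, and without that array the difference was -0.63. After CFA the order turned, with 5.87, 6.23 and 6.11 in controls and 6.79, 6.31 and 6.48 in mutants, 1.37-fold higher in the mutant (0.46, SE 0.14). The probes of a pseudogene can also bind the transcript of its parent, and the parent Gpr137b, measured by a probe set of its own, gave 0.06, 0.40 and 0.34 in naive epidermis, CFA epidermis and DRG, with adjusted p of 0.55 in CFA epidermis and 0.19 in DRG by limma.

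Zfp979, a zinc finger gene in a cluster of near-identical copies, was low throughout. In CFA epidermis it read 4.88, 6.07 and 5.17 in controls, all above background, and 2.13, 2.08 and 1.89 in mutants, all below it. The mutant was at least 1.55-fold lower, and the measured difference was -3.34 (SE 0.25). In naive epidermis the mutants read 2.22, 2.15 and 2.84, again below background, while control replicates 1 and 2 read 5.57 and 5.13 and control replicate 3 read 2.43. That control array lay among the mutants, so the groups overlapped, and the control SD was 1.70. In DRG both genotypes were below background on every array. Because of the similar copies, probe signal may be shared between genes of this cluster. A probe set that stands for 6 genes, Zfp979 among them, was not used.

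AI506816, a long noncoding RNA of unknown function, was lower in the mutant. In DRG it read 6.79, 6.90 and 6.87 in controls and 4.67, 5.32 and 4.19 in mutants, all 3 below background, which was at least 2.01-fold lower (measured difference -2.13, SE 0.23). In CFA epidermis it read 8.13, 8.36 and 8.50 in controls and 7.15, 6.84 and 7.20 in mutants, 2.41-fold lower (-1.27, SE 0.13) and apart. In naive epidermis, mutant replicate 2 at 7.61 lay among the controls at 7.75, 7.49 and 7.30, while the other mutants read 6.82 and 6.89. The groups overlapped, with a difference of -0.41 (SE 0.21) that was -0.66 without mutant replicate 2 and -0.26 without mutant replicate 1. The plot of the 3 differences shows AI506816 on the same side in each and Pla2g4e, Gpr137b-ps and Clec2d on both sides.

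**Figure D2:**
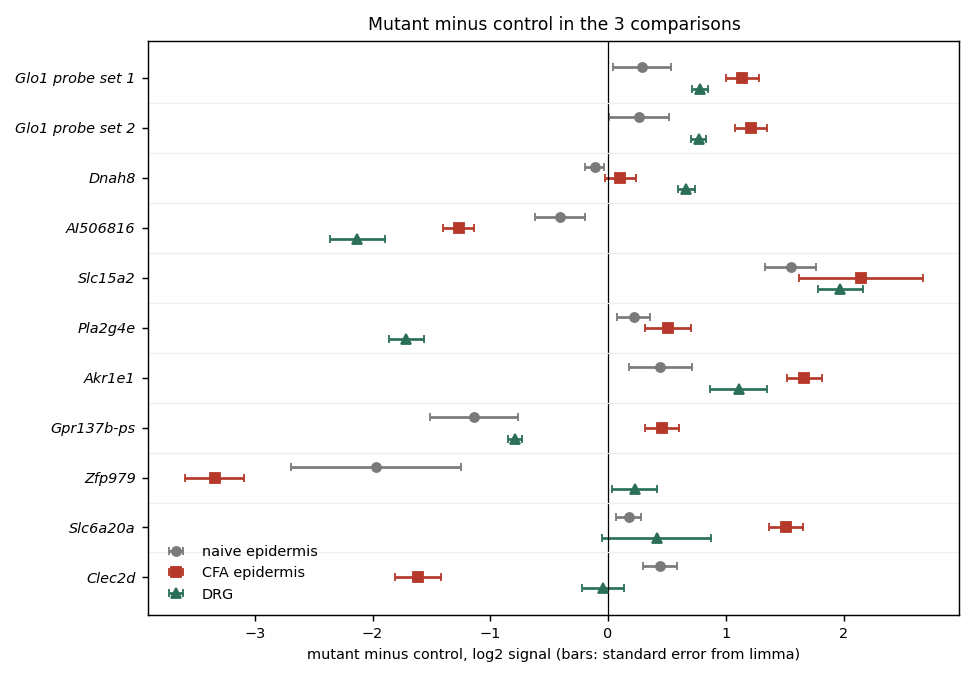
Mutant minus control differences in log2 signal (x axis, with the standard error from limma as bars) are plotted for each probe set (y axis) in naive epidermis (grey circles), CFA epidermis (red squares) and DRG (green triangles). Zfp979 in CFA epidermis lies furthest to the left at -3.34 and Slc15a2 in CFA epidermis furthest to the right at 2.15.

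The change of the epidermis with CFA, averaged over both genotypes, was not one of the differences that chose the genes, and it was tested. Yet a gene whose genotypes differ after CFA but not before it must change in at least 1 genotype. The number of genes that changed is therefore not free of the choice. Clec2d rose and Slc6a20a, Gpr137b-ps, Akr1e1, Slc15a2 and Dnah8 fell, and AI506816 rose. Thus 7 of the 10 genes were past an adjusted p of 0.05 with limma over all probe sets (6 CFA and 6 naive arrays per side), 2 higher and 5 lower, where 43.7% of all probe sets were past it. Clec2d averaged 6.64 in naive and 8.86 in CFA epidermis, 4.63-fold higher (SE 0.14 on the log2 scale, adjusted p = 3e-08 with limma). Slc6a20a went from 8.42 to 7.10, 2.49-fold lower (SE 0.10, adjusted p = 1.8e-07 with limma). Gpr137b-ps went from 7.16 to 6.30, 1.82-fold lower (SE 0.22, adjusted p = 0.0057 with limma). These 3 kept their calls in all 20 alternative settings. Akr1e1 fell by 0.53 (SE 0.17, adjusted p = 0.02 with limma) and Dnah8 by 0.26 (SE 0.08, adjusted p = 0.022 with limma). The Dnah8 signal after CFA was close to background, though above it on every array.

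The calls of AI506816 and Slc15a2 were the least firm. AI506816 rose by 0.39 (SE 0.13, adjusted p = 0.032 with limma) and kept the call in 9 of 20 alternatives. Slc15a2 fell by 0.89 (SE 0.34, adjusted p = 0.047 with limma) and kept it in 7 of 20, with adjusted p from 0.0064 to 0.13. Glo1, Pla2g4e and Zfp979 did not pass, with adjusted p of 0.96 and 0.69 for the Glo1 probe sets, 0.74 and 0.58.

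The mean of both genotypes covers unlike changes in control and mutant mice. In controls Slc6a20a fell by 1.99 after CFA and in mutants by 0.65. Gpr137b-ps fell by 1.67 in controls and by 0.07 in mutants. Akr1e1 fell by 1.14 in controls and changed by 0.08 in mutants. Clec2d rose by 3.24 in controls and by 1.18 in mutants, and AI506816 changed by 0.82 and -0.04. Glo1 moved in opposite directions, by -0.44 in controls and 0.42 in mutants on its first probe set. These gaps between genotypes are made of the differences that chose the genes and were not tested.

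**Figure D3:**
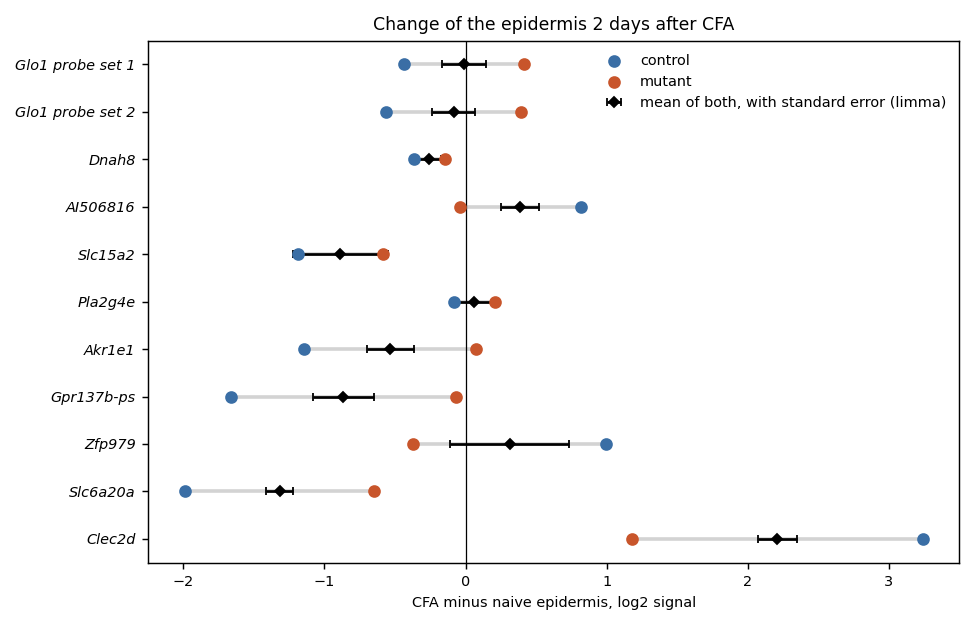
The change of log2 signal from naive to CFA epidermis (x axis) is plotted for each probe set (y axis) in control (blue) and mutant (orange) mice, with the mean of both and its standard error from limma as a black diamond. The control point lies further from 0 than the mutant point for Clec2d (3.24 against 1.18), Slc6a20a (-1.99 against -0.65), Gpr137b-ps and Akr1e1.

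Relatives of the 10 genes were counted in 9 lists of pathway and family members, which were drawn up for genes other than the 10, with 123 of 148 listed genes measured. In the genotype comparisons nearly none passed. Rragd, a GTPase of the lysosomal nutrient-sensing complex listed beside Gpr137b-ps, was lower in the mutant in naive epidermis (-0.77, SE 0.06, adjusted p = 0.024 with limma), and it was the only relative past the threshold in that comparison. In CFA epidermis 0 of 123 and in DRG 0 of 123 passed with limma. Over all probe sets, limma passed 0.0299% in naive epidermis, 0.179% in CFA epidermis and 0.0726% in DRG. A fit without moderated variances, with the same adjustment, gave 0 relatives in each comparison, and Rragd lost its call. That fit passed 0 of all probe sets in naive epidermis, 0 in CFA epidermis and 1 in DRG, so its zeros say little about the relatives. Rragd was below background on all 3 naive mutant arrays, so it was at least 1.35-fold lower. At an unadjusted p under 0.05 there were 12 of 123 in naive epidermis, 18 in CFA epidermis and 14 in DRG, where 8.94%, 8.96% and 7.15% of all probe sets were under it.

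The nearest of these to the threshold were spread over the families. In the glyoxalase list the smallest p in CFA epidermis was that of Lactb2, a metallo-beta-lactamase-fold protein (0.66, SE 0.12, adjusted p = 0.091 with limma). In the phospholipase list it was Pla2g4f, which lies in the same gene cluster as Pla2g4e (0.71, adjusted p = 0.16 with limma). In the zinc finger list, Zfp991 gave 0.60 in CFA epidermis (adjusted p = 0.19 with limma). In DRG the smallest p of that list was that of Zfp985 (adjusted p = 0.14 with limma), which was below background on all arrays of both genotypes. Clec2e, a lectin-like relative of Clec2d, gave 0.78 in CFA epidermis (adjusted p = 0.21 with limma), whereas Clec2d gave -1.62.

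With CFA, 59 of the 123 relatives changed, 29 higher and 30 lower, against 43.7% of all probe sets. Transport and lipid genes were among the largest. Slc15a1, the intestinal-type peptide transporter PEPT1, fell by 3.25 (SE 0.11, adjusted p = 7.8e-11 with limma), and the amino acid transporters Slc6a14 and Slc6a19 fell by 3.00 and 2.13. In the peptide list 5 of 11 fell and 2 rose, with a median of -0.04 where the median of all probe sets was 0.03. In the list of phospholipases and N-acylethanolamine enzymes 8 of 14 fell and 1 rose, with a median of -0.27. Gdpd1 and Gde1, phosphodiesterases that release N-acylethanolamines, fell by 2.23 and 0.83, and Faah, which breaks these lipids down, fell by 1.43. In the aldo-keto reductase list 3 of 13 fell and 2 rose, among them Akr1c18, a steroid reductase, by -2.50. In the Gpr137 and lysosomal list 6 of 15 fell and 0 rose, with Gpr137b itself lower by 1.01 (adjusted p = 6.4e-06 with limma), beside the fall of Gpr137b-ps. In the glyoxalase list 4 of 13 rose and 2 fell, with Park7, a protein linked to oxidative stress, higher by 0.72 and Gclc, of glutathione synthesis, lower by 0.50. In the lectin list 5 of 16 rose and 0 fell, with Clec2e at least 1.64-fold higher (adjusted p = 3.3e-05 with limma) and Clec2j, Klrb1 and Clec12b below background on all epidermal arrays. In the axonemal dynein list 5 of 18 rose and 0 fell, and in the zinc finger list 4 of 8 rose and 0 fell, with Dnah11 and Zfp985 below background on all epidermal arrays. The amino acid transport list had 6 of 16 higher and 6 lower.

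Genes that lie next to the 10 in the reference order were examined as well, 5 measured genes on each side. Of 90 such neighbours outside the 10, 0 passed in each genotype comparison with limma, which passed 0.0299%, 0.179% and 0.0726% of all probe sets. Without moderated variances 0 neighbours passed too, where 0, 0 and 1 of all probe sets did. At an unadjusted p under 0.05 there were 9 neighbours in naive epidermis, 20 in CFA epidermis and 17 in DRG, beside 8.94%, 8.96% and 7.15% of all probe sets. Genotypes were apart for 13 of the 90 (14.4%) in naive epidermis, 23 (25.6%) in CFA epidermis and 22 (24.4%) in DRG, beside 16.6%, 14.3% and 11.8% of all probe sets. The genes named next were chosen after their values were seen. Around Zfp979, 7 of 10 neighbours were apart in DRG, in both directions, among them Fv1, a retrovirus restriction gene, at -0.62 (adjusted p = 0.057 with limma), and Rps19-ps3 at -0.55 (adjusted p = 0.078 with limma), while Zfp982, Zfp991 and Zfp980 gave 0.85, 0.59 and 0.42. Of these 7, Zfp980, Zfp600 and Zfp985 were below background on all DRG arrays of both genotypes, and Zfp982 was below it in control DRG. Next to Glo1, Btbd9 gave 0.11, 0.29 and 0.45 in naive epidermis, CFA epidermis and DRG and was apart in the last 2. Around Slc15a2, 1 of 10 neighbours was apart in each comparison. In CFA epidermis this was Stfa3, 4 places from Slc15a2, which gave -1.23 there and 0.10 in DRG. In naive epidermis it was Stfa2, which was below background on every array, and in DRG it was Golgb1, at -0.15. The plot of neighbours shows Slc15a2 among genes near 0 in DRG, and Glo1 flanked by Btbd9 and Dnah8.

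**Figure D4:**
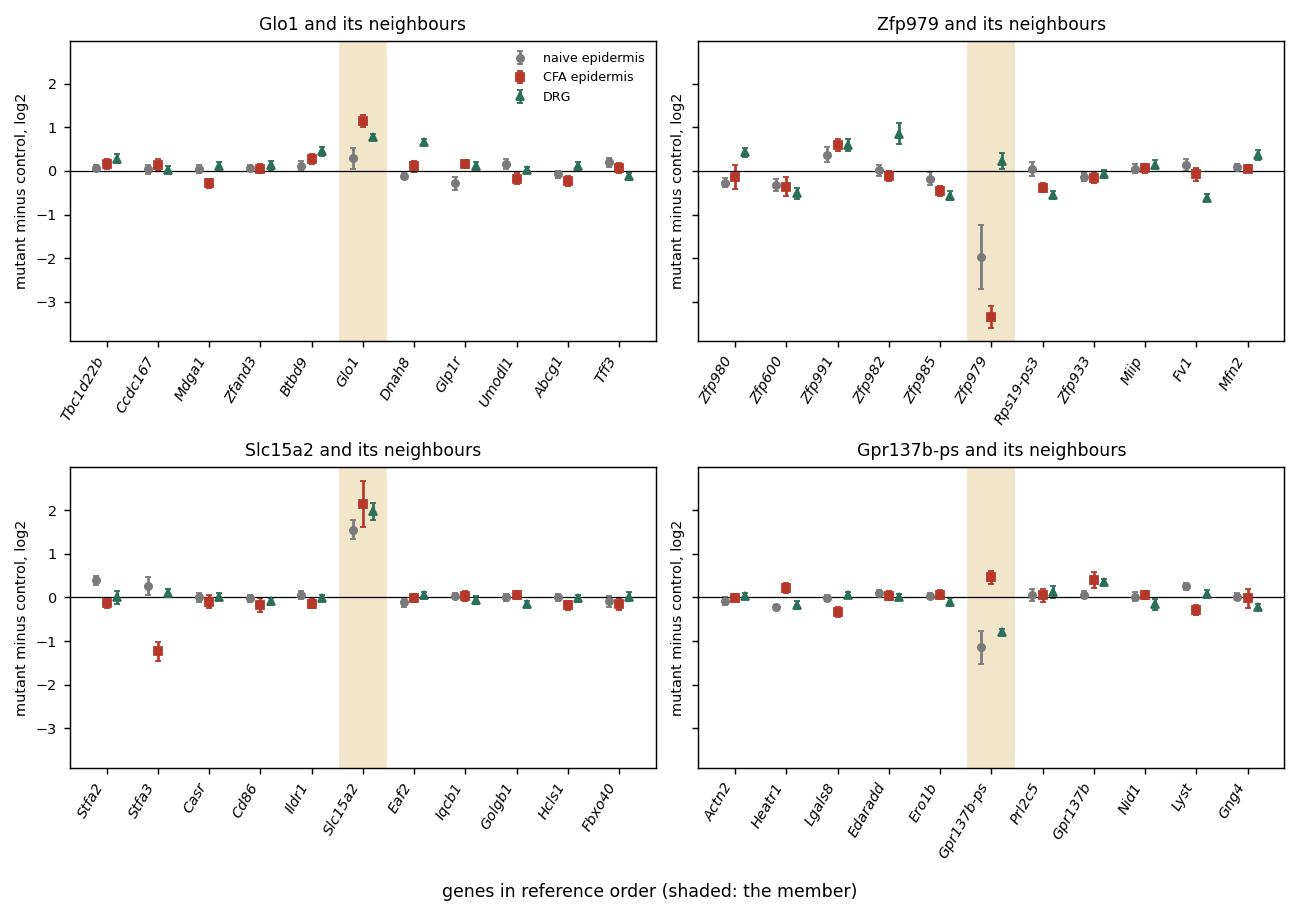
Mutant minus control differences in log2 signal (y axis, bars are standard errors from limma) are plotted for Glo1, Zfp979, Slc15a2 and Gpr137b-ps (shaded) and the 5 measured genes on each side in reference gene order (x axis), in naive epidermis (grey), CFA epidermis (red) and DRG (green). In DRG, Slc15a2 at 1.97 stands beside neighbours near 0, while in CFA epidermis its neighbour Stfa3 lies at -1.23, and 7 of 10 neighbours of Zfp979 were apart in DRG.

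For each of the 10 genes, the gene with the most similar pattern was looked up by Pearson's r of log2 signal less the mean of its tissue over the 18 arrays, which share groups and libraries. For Clec2d this was Csf1, a macrophage growth factor (r = 0.979), and for Slc6a20a it was Scrib, a polarity protein (r = 0.942). Glo1 was closest to Unc45a (0.918), Akr1e1 to Zdhhc18 (0.917), Slc15a2 to Wasf2 (0.9) and AI506816 to Zfp985 (0.894), the zinc finger gene that lies beside Zfp979 and was below background on every array. Dnah8 was closest to Lrrc31 (0.855), Pla2g4e to Mamdc2 (0.85), Gpr137b-ps to Naa35 (0.847) and Zfp979 to Ptp4a3 (0.834). None of these is among the 10 genes, and the values are a description. Group means were left in, so a shared change with CFA or genotype raises r. Each r is also the highest over all probe sets with exactly 1 gene, and no cell type can be read from it.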

How the data were processed

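Each of the 18 arrays came from epidermis or DRG of control or mutant mice. The authors summarised probes by RMA in Partek, deposited the result on a log2 scale, and compared genotypes by ANOVA in Genomics Suite 3. The genome build and the version of RMA are not given in the sources used here. No transformation was added to the deposited log2 values, 0 of which are missing, and 0 columns of samples were left unused. The number of arrays limits precision, with 3 arrays per group and 4 residual degrees of freedom per genotype comparison.

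By the platform's annotation, 23410 probe sets have a gene, of which 21789 have exactly 1 and 1621 have several. A further 12146 without a gene there were not tested. RefSeq (GRCm38.p6) gave gene order, biotypes and the names of neighbours, and all 10 genes were matched in it. Each genotype comparison used the 6 arrays of its 2 groups, and the CFA comparison used the 12 epidermal arrays, by limma 3.58.1 under R 4.3.3 (lmFit, then eBayes), two-sided, with Benjamini-Hochberg adjustment and a threshold of 0.05. The fits were tested on simulated data. Background on an array was the 95th percentile of 1218 receptor probe sets. Where a group was below it on all arrays, the fold is the brighter mean over the dimmer group's mean of, per array, the higher of background and own signal, given as "at least". Tables and plots used Python 3.11.15 with pandas 2.3.3, matplotlib 3.10.9, scipy 1.17.1 and numpy 2.4.6.

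The 10 genes and all gene lists were chosen with earlier results of these data known. The genes named are the 10, up to 3 relatives per list past the threshold or else that with the smallest p, 1 gene of most similar pattern per gene, and the leading genes apart in all 3 comparisons; others are said to be chosen after seeing the data. Of the 12 cell type marker lists, keratinocyte, neuron and macrophage lists are described in the results. The fibroblast, endothelial, satellite glia and Schwann cell, and erythrocyte lists are named there only beside the DRG values of Slc6a20a. Alternatives were quantile normalization, median centring, dim probe sets left out, all probe sets tested, trend and robust moderation, ordinary ANOVA, array weights, a replicate block, all epidermal groups in 1 fit, other background percentiles, and leaving out arrays.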

Additional observations from a re-analysis of the deposited data

Results flagged for a closer look

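Differences between mutant and control ran in opposite directions in different tissues or conditions for 3 of the 10 genes, with every array of each group on its own side. Pla2g4e was higher in mutant CFA epidermis (0.51) and lower in mutant DRG (-1.72). Gpr137b-ps was lower in the mutant in naive epidermis (-1.14) and DRG (-0.79) and higher in CFA epidermis (0.46). Clec2d was higher in mutant naive epidermis (0.44) and lower in mutant CFA epidermis (-1.62). Of these values, only Pla2g4e in DRG, Gpr137b-ps in DRG and Clec2d in CFA epidermis were past the adjusted threshold with limma. Of all probe sets, 16.6% were apart in naive epidermis, 14.3% in CFA epidermis and 11.8% in DRG. The share of all probe sets apart in opposite directions was not counted. The difference between conditions was not tested for these genes, since they were chosen for their genotype differences, and the smaller of the opposed values rest on groups that were apart by little. Leaving out an array moved Pla2g4e in CFA epidermis to 0.26 (without control replicate 1) and Gpr137b-ps in naive epidermis to -0.63 (without mutant replicate 3).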

How the results depend on the processing

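Of 493 alternative values for the 33 genotype differences, 2 moved by more than the SD between replicates, both without the DRG arrays with raised keratinocyte transcripts, an alternative that leaves 2 arrays per group (Slc15a2 2.31, Gpr137b-ps -0.76 in DRG), and 7 changed sign, all of differences no larger than 0.29. Most settings could not add to the 2 that moved. Several change only the standard error or the probe sets tested and leave each difference as it is. Leaving out 1 of 3 arrays cannot move a mean beyond that SD. Gpr137b-ps in naive epidermis, at -1.14 and at -0.63 without mutant replicate 3, thus counted as not moved. The number of the 10 genes past the threshold in CFA epidermis (6) was 1 with all probe sets tested, 0 by ordinary ANOVA and 4 to 6 with each array left out. In DRG (6) it was 2 with all probe sets, 0 by ANOVA, 1 without those 2 arrays, and 3 to 7 with each array left out, lowest without control replicate 2. In naive epidermis it was 0 in every setting. For the CFA change (7) it was 4 by ANOVA and 4 to 7 with each array left out, lowest without naive mutant replicate 3 or CFA mutant replicate 1. Counts over all probe sets ranged from 0 to 79 (7 as reported) in naive epidermis, 0 to 289 (42) in CFA epidermis, 1 to 203 (17) in DRG and 9203 to 13095 (10238) for CFA. The number of the 10 genes above background on all DRG arrays (5) was 8 at the 90th percentile.

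CFA changes that were not past the threshold turned sign. For Glo1 probe set 1 (-0.01) the value was 0.089 after quantile normalization, 0.014 with array weights and -0.11 to 0.16 with each array left out. For probe set 2 (-0.09) it was 0.010 after quantile normalization and -0.18 to 0.085 with each array left out. Pla2g4e ranged from -0.014 to 0.19 and Zfp979 from -0.17 to 0.61 with each array left out.

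Same-numbered arrays of the genotypes correlated at -0.07 to 0.23 in their deviations, and 2 of 6, 2 of 6 and 3 of 6 arrays correlated best with their own number, so the numbers were not taken to pair animals. With a replicate block, 0, 7 and 6 of the 10 genes were past the threshold in naive epidermis, CFA epidermis and DRG, and 0, 289 and 51 of all probe sets.

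In CFA epidermis Glo1 lost its call without control replicate 1 and Clec2d without control replicate 1, mutant replicate 1 or mutant replicate 2. In DRG, Dnah8 lost it in 4 of 6 such fits, AI506816 in 3 and Slc15a2 in 2. The genes were chosen on these genotype contrasts, so calls kept or lost in them describe the fits and are no test of the genes.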

Other observations

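Array means of the other cell type marker lists are given as ranges, control before mutant. In epidermis, T cell markers averaged 5.40 to 5.55 in CFA controls and 5.41 to 5.48 in CFA mutants, and basal keratinocyte markers averaged 10.88 to 10.98 and 10.91 to 11.02. Neutrophil markers spread widely within groups after CFA, from 5.39 to 6.92 in controls and from 5.60 to 6.55 in mutants. In DRG, fibroblast markers averaged 8.87 to 9.42 in controls and 8.93 to 9.25 in mutants, lowest in both genotypes on replicate 1. Endothelial markers averaged 7.16 to 7.40 and 7.25 to 7.43, and satellite glia and Schwann cell markers 10.25 to 10.33 and 10.19 to 10.38, both also lowest on replicate 1. Melanocyte markers averaged 4.94 to 5.34 and 4.83 to 5.09 in CFA epidermis, muscle markers 6.59 to 6.70 and 6.66 to 6.86 in DRG, and the 1 measured erythrocyte marker 6.56 to 6.96 and 6.65 to 7.69 in DRG. Their part in the values of the 10 genes was not tested.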
